A study of Mus musculus with 6 samples.

Results

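The nuclear genes of the oxidative phosphorylation machinery were followed in 4T1 cells, a mouse mammary carcinoma line, with and without METTL7A1. Members were chosen by symbol: all rows of the count table whose name begins with Ndufa, Ndufb, Ndufc, Ndufs, Ndufv, Sdh, Uqcr or Atp5, or with Cox followed by a digit from 4 to 8. Of 103 such rows, 7 pseudogene symbols ending in -ps, none with more than 4 counts in a library, and 7 Ndufaf assembly factors were dropped. Of the 89 candidates left, 81 reached 1 cpm (a count scaled to the size of its library) in 3 or more libraries, and these are the members, among 48587 listed genes and 13166 genes that passed the same filter. Of the members, 75 encode subunits: 36 of complex I, 4 of complex II, 8 of complex III, 12 of complex IV and 15 of complex V. The other 6 carry a matching symbol without being subunits: Sdhaf1, Sdhaf2, Sdhaf3 and Sdhaf4, which help to assemble complex II, and Atp5s and Atp5sl. Cyc1 (cytochrome c1) is a subunit of complex III that the prefixes do not take, and it is given with the electron carriers.

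Oxidative phosphorylation couples the transfer of electrons to the making of ATP in the inner mitochondrial membrane. Complexes I and II pass electrons from NADH and succinate to coenzyme Q, complex III passes them on to cytochrome c, complex IV reduces oxygen, and complex V uses the proton gradient built by complexes I, III and IV to make ATP. Most subunits are encoded in the nucleus and imported, and a small set of hydrophobic subunits is encoded in mitochondrial DNA, so that all complexes except complex II are assembled from the products of both genomes.

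The libraries were 3 of 4T1 cells that stably carried full-length Mettl7a1 cDNA in the pBICEP-CMV-2 vector (METTL7A1) and 3 of mock 4T1 cells, the cells being kept under G418 selection. The CMV promoter drives the transfected gene in this vector. The labels give 1 transfection text for all libraries and set the groups apart by title and genotype, and whether a line was a clone or a pool is not given in the sources used here. Total RNA, depleted of ribosomal RNA, was read as stranded libraries. Mettl7a1 had 6355, 11358 and 10398 counts in METTL7A1 replicates 1 to 3 against 30, 30 and 29 in mock replicates 1 to 3, and the log2 fold change with its standard error (SE) was 8.17 ± 0.14 (edgeR quasi-likelihood test, adjusted p = 4.89e-11), so each library followed its label.

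Library totals lay between 18386780 and 28459338 counts, and member genes had between 29 and 34060 counts per library, with at least 115 for every subunit. The epithelial markers Epcam, Cdh1, Krt8, Krt18 and Krt19 were present in all libraries, Krt5 was at 0 counts, and Krt14 was lower in METTL7A1 cells (log2 fold change -1.94). The summed level of the 7 epithelial markers was 1474 to 1796 cpm in METTL7A1 and 1499 to 1710 cpm in mock libraries. Cd3e was at 0 counts, Ptprc had at most 8, and 1 of 5 leukocyte markers (Csf1r, log2 fold change 1.68) and 1 of 6 fibroblast markers (Pdgfra, 0.47) were higher. The summed leukocyte markers reached 2.77 cpm in METTL7A1 and 1.08 cpm in mock libraries, and the summed fibroblast markers 27.7 and 19.1 cpm. The part of these in the results was not tested, and in bulk RNA fewer cells of a kind and less RNA per cell cannot be told apart.

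In each group 1 library stood apart for these genes. METTL7A1 replicate 1 had the lowest cpm of its group for 67 of the 81 members, and mock replicate 3 for 68. Relative to the mock mean, the median member lay at -0.23, -0.13 and -0.04 on the log2 scale in METTL7A1 replicates 1 to 3 and at 0.04, 0.11 and -0.16 in mock replicates 1 to 3, so that for the module as a whole the groups overlapped. The medians of all genes tested lay between -0.03 and 0.02 in the same libraries. Short genes, like many of the members, had medians of -0.06, -0.11 and -0.13 in METTL7A1 replicates 1 to 3. In mock replicates 1 to 3 the short genes were at 0.04, 0.03 and -0.07. Mock replicate 3 was thus also low for short genes, while METTL7A1 replicate 1 was not the lowest of its group for them. The calls that differ without these 2 libraries are therefore named below, and the cause of the shift was not tested.

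The first question was how many of the genes differed between METTL7A1 and mock cells. Most changes were small and more members fell than rose: 28 of 81 had an adjusted p under 0.05 (34.6%), 7 higher and 21 lower in METTL7A1 cells, by edgeR's quasi-likelihood test with Benjamini-Hochberg adjustment over all 13166 genes. The share among all genes tested was 42.1%, with 21.1% higher and 21% lower, so the share among members was below that of all genes, and most of their calls were falls. At the thresholds of the study, an adjusted p under 0.01 with a log2 fold change over 1.5 in either direction, no member was called, by this test or by DESeq2 or voom, against 2.48% of all genes. At an unadjusted p under 0.05 with no limit on the fold change there were 37 members. The share of all genes at that limit is not given here. It is at least the 42.1% called at an adjusted p under 0.05, a stricter limit, so the 37 cannot be set against it. The median log2 fold change was -0.15, beside -0.03 over all genes, with 56 members below 0 and 25 above. The METTL7A1 libraries lay wholly above or below the mock libraries for 35 members (43.2%), beside 51.6% of all genes. Among the called members the median absolute log2 fold change was 0.36, and 4 exceeded 0.5: Cox7c, Atp5j2 and Sdha, which fell, and Ndufa12, which rose.

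**Figure D1:**
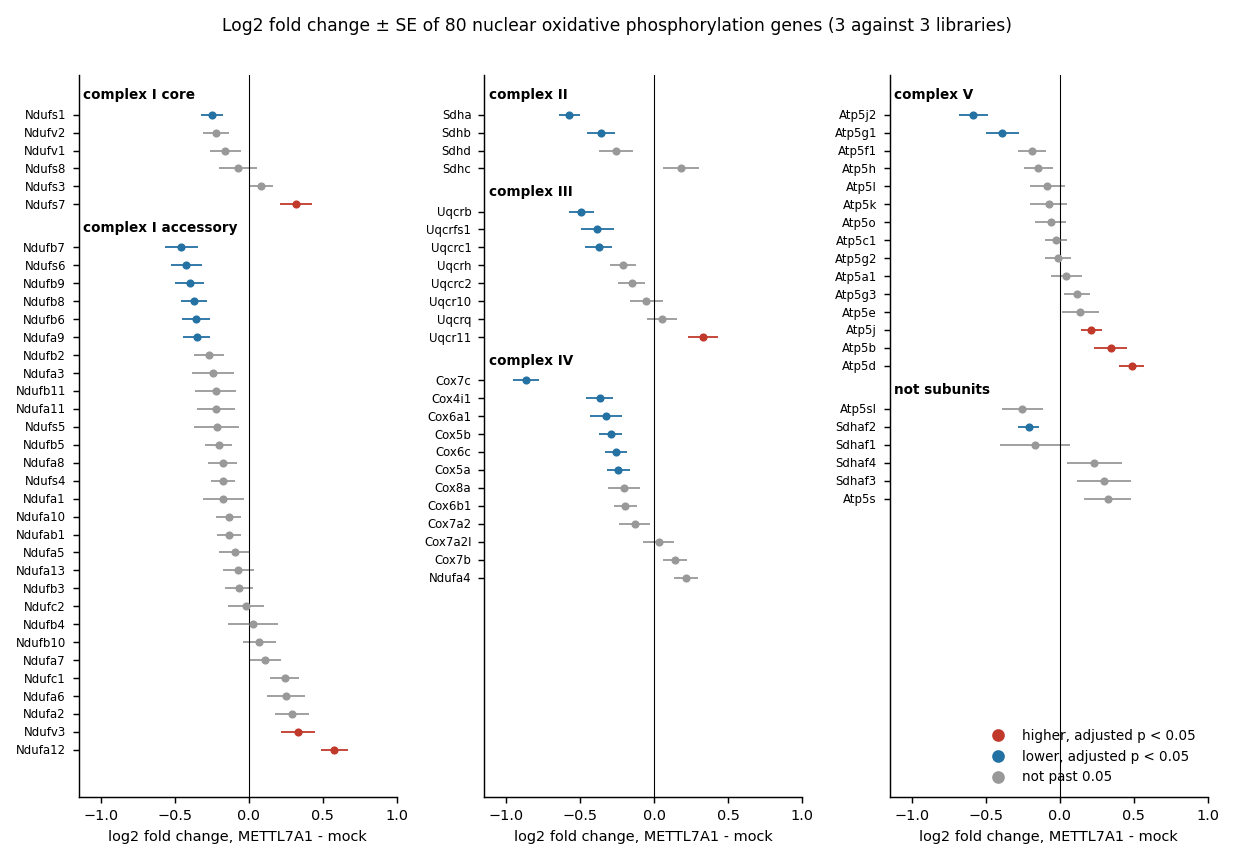
Log2 fold change (METTL7A1 minus mock) of 80 of the 81 members, each with its SE, ordered within each complex, red where higher and blue where lower at an adjusted p under 0.05 (edgeR, 3 against 3 libraries). The 21 lower and 7 higher members lie between -0.87 (Cox7c) and 0.58 (Ndufa12), and complexes II and IV hold no higher member.

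Without METTL7A1 replicate 1 and mock replicate 3, a comparison of 2 against 2 libraries chosen after seeing the data, 41 members were called, 11 higher and 30 lower. All genes were then also called more often, and the shares came to 50.6% of members and 50.5% of all genes. Of the 14 members called in this smaller comparison and not in that of all libraries, Ndufb2, Ndufb11, Ndufs4, Ndufv1, Sdhd, Uqcrh, Cox8a, Cox6b1, Cox7a2 and Atp5f1 were lower and Ndufa2, Ndufa4, Ndufc1 and Atp5s higher, with edgeR adjusted p from 0.00109 to 0.0464. Sdhaf2 was the 1 member that lost its call (edgeR adjusted p = 0.0568). The 2 libraries were the lowest of their groups for most members, so leaving them out narrows the spread of those members by choice. The p values of this comparison, here and below, therefore only describe the remaining libraries and are no support for a change. The count also moved with single libraries. Without mock replicate 1, 16 members were called, and without METTL7A1 replicate 2, 17. Without mock replicate 3 the count was 35. The shares of all genes called in these fits are not given here, so whether members moved more than other genes cannot be read. In all 6 fits that each left out a library, 13 members kept their call: Ndufa12 and Atp5d as higher, and Cox7c, Atp5j2, Sdha, Uqcrb, Ndufb7, Ndufs6, Ndufb9, Uqcrc1, Cox4i1, Ndufb8 and Sdhb as lower. How many of all genes kept their call in all 6 fits is not given here either.

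Complex I, the NADH dehydrogenase, had 10 of 36 members called, 3 higher and 7 lower, with a median log2 fold change of -0.15. Its 7 nuclear core subunits carry the flavin and the iron-sulfur clusters or line the coenzyme Q site. Of these, Ndufs1 fell and Ndufs7 rose. Ndufs1, the large iron-sulfur subunit (chromosome 1, 63143596 to 63176822), had 85.4, 84.7 and 83.8 cpm in METTL7A1 replicates 1 to 3 and 102, 107 and 92.1 cpm in mock replicates 1 to 3. All METTL7A1 values lay below all mock values, and the log2 fold change (± SE) was -0.25 ± 0.07 (edgeR adjusted p = 0.017). Ndufs7, which binds the last iron-sulfur cluster before coenzyme Q (chromosome 10, 80249121 to 80256793), had 26.3, 27.4 and 27.2 cpm against 25.2, 21.7 and 18.3 cpm. The mock values spread widely and the nearest, that of replicate 1, was just under the METTL7A1 values, with a log2 fold change (± SE) of 0.32 ± 0.11 (edgeR adjusted p = 0.034). Leaving out METTL7A1 replicate 2 or 3 ended the calls of Ndufs1 and Ndufs7, as did leaving out mock replicate 2, and also mock replicate 1 for Ndufs1 and mock replicate 3 for Ndufs7. Of the other core subunits, none was called: Ndufv2 had a log2 fold change of -0.22, Ndufv1, which binds NADH, of -0.16, Ndufs8 of -0.07 and Ndufs3 of 0.08, with edgeR adjusted p between 0.07 and 0.687. Without METTL7A1 replicate 1 and mock replicate 3, Ndufv1 was called lower (-0.22, edgeR adjusted p = 0.00955).

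Among the 29 accessory subunits, which surround and stabilise the core, 2 rose and 6 fell. Ndufa12 (chromosome 10, 94198955 to 94221443) had the largest rise of all members. Its levels were 35.5, 37.4 and 39.3 cpm in METTL7A1 cells and 23.2, 28.2 and 23.7 cpm in mock cells. The groups were well apart, the mean rising by 49.1%, a log2 fold change (± SE) of 0.58 ± 0.09 (edgeR adjusted p = 0.000488). Ndufv3 was the other accessory subunit that rose (0.33, SE 0.12, edgeR adjusted p = 0.0387), and it kept its call only when METTL7A1 replicate 1 was the library left out. Ndufa12 shares 20.7% of its stretches of 31 bases with other annotated genes, mainly the pseudogene Gm15920 with at most 443 counts in a library, and how such reads were counted is not stated. The falls were those of Ndufb7, Ndufs6, Ndufb9, Ndufb8, Ndufb6 and Ndufa9, of which the Ndufb genes encode subunits of the membrane arm. Those of Ndufb6 (-0.36) and Ndufa9 (-0.35) were not called on leaving out mock replicate 1. Ndufb7 (chromosome 8, 83566671 to 83571626) had 14.1, 17.8 and 18.9 cpm in METTL7A1 against 24.1, 24.2 and 21.9 cpm in mock libraries. Its log2 fold change (± SE) was -0.46 ± 0.11 (edgeR adjusted p = 0.00674), and METTL7A1 replicate 1 was the lowest library. Ndufs6, a zinc-binding subunit (chromosome 13, 73319874 to 73328542), had 13.5, 15.6 and 17.3 cpm against 20.7, 21.99 and 19.8 cpm, with no overlap and a log2 fold change (± SE) of -0.42 ± 0.10 (edgeR adjusted p = 0.0073). Ndufb9 (chromosome 15, 58933810 to 58939489) was the most abundant complex I member per length, at 321 ± 44.5 rpkm (cpm divided by the exon length in kilobases, SD, n = 3) in mock cells, and Ndufb2 the least, at 2.99 ± 0.0987 rpkm. Ndufb9 had 166, 158 and 150.2 cpm in METTL7A1 and 230.0, 221 and 176 cpm in mock cells, a log2 fold change (± SE) of -0.40 ± 0.10 (edgeR adjusted p = 0.00748). The exon lengths behind rpkm are the union of all annotated exons, and a long rarely used exon lowers the value of a gene.

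Complex II, the succinate dehydrogenase, also a step of the tricarboxylic acid cycle, is wholly nuclear-encoded, and 2 of its 4 subunits fell. Sdha, the flavoprotein that oxidises succinate (chromosome 13, 74322254 to 74350280), had 95.9, 98.9 and 101 cpm in METTL7A1 cells and 151, 152 and 138 cpm in mock cells. These groups were far apart compared with their spread, and the level fell by 32.8%, a log2 fold change (± SE) of -0.57 ± 0.07 (edgeR adjusted p = 7.5e-05). Sdhb, the iron-sulfur subunit (chromosome 4, 140961203 to 140979193), had 52.5, 57.0 and 60.1 cpm against 73.7, 80.7 and 63.4 cpm. Its groups did not overlap either, with a log2 fold change (± SE) of -0.36 ± 0.09 (edgeR adjusted p = 0.00944). The membrane anchors were not called with all libraries. Sdhc had 36.8, 42.8 and 49.5 cpm against 40.6, 41.6 and 32.3 cpm (log2 fold change 0.18 ± 0.12 SE), and Sdhd 53.0, 60.6 and 69.0 cpm against 71.5, 84.1 and 63.0 cpm (-0.26, SE 0.12). In both anchors the groups overlapped. Sdhd was called lower without METTL7A1 replicate 1 and mock replicate 3 (-0.24, edgeR adjusted p = 0.0158). The summed level of the 4 subunits was 238, 259 and 280 cpm in METTL7A1 and 336, 358 and 297 cpm in mock replicates 1 to 3, without overlap. Of the assembly factors of complex II, Sdhaf2, which attaches the flavin to Sdha, fell by 0.21 on the log2 scale (SE 0.07, edgeR adjusted p = 0.036), a call that was lost in each of the 6 fits that left out a library. Sdhaf1, Sdhaf3 and Sdhaf4 had log2 fold changes of -0.16, 0.30 and 0.23 and were not called, at levels between 1.56 and 3.83 cpm in any library.

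Complex III, the cytochrome bc1 complex, had 3 lower and 1 higher member of 8. Uqcrb, a small subunit near the coenzyme Q site (chromosome 13, 66900617 to 66905378), had 28.3, 30.9 and 31.3 cpm in METTL7A1 and 43.2, 45.3 and 39.1 cpm in mock cells. The log2 fold change (± SE) was -0.49 ± 0.08 (edgeR adjusted p = 0.000658), and all METTL7A1 libraries were lower. It shares 34.8% of its stretches of 31 bases with other genes, which together had at most 35 counts in a library. Uqcrfs1, the Rieske iron-sulfur protein (chromosome 13, 30540308 to 30545362), had 35.4, 44.2 and 47.0 cpm against 56.4, 61.1 and 48.3 cpm. Here METTL7A1 replicate 3 came close to mock replicate 3 (log2 fold change -0.38 ± 0.11 SE, edgeR adjusted p = 0.0179), and the call was lost without mock replicate 1 or 2. Uqcrc1, a core protein without a redox group (chromosome 9, 108936633 to 108949623), had 124, 139 and 145 cpm against 189.96, 183 and 157 cpm, a log2 fold change (± SE) of -0.38 ± 0.09 (edgeR adjusted p = 0.00619). Uqcr11, one of the smallest subunits, went the other way. It had 49.1, 56.9 and 55.3 cpm against 46.0, 46.5 and 36.5 cpm, a log2 fold change (± SE) of 0.33 ± 0.10 (edgeR adjusted p = 0.0217), and its call was lost without METTL7A1 replicate 2 or 3. Uqcrh, the hinge protein and the most abundant of the complex per length (108 ± 13.2 rpkm in mock cells), was not called with all libraries (-0.21, SE 0.09, edgeR adjusted p = 0.0761) but was called lower without METTL7A1 replicate 1 and mock replicate 3 (-0.27, edgeR adjusted p = 0.00501). Cyc1 had a log2 fold change (± SE) of -0.01 ± 0.08.

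Complex IV, the cytochrome c oxidase, had 6 of 12 members lower and none higher, with a median log2 fold change of -0.22. Cox7c, a small membrane subunit (chromosome 13, 86044816 to 86046904), showed the largest change of all 81 members. Its counts were 736, 1241 and 963 in METTL7A1 replicates 1 to 3 and 1407, 1916 and 1603 in mock replicates 1 to 3, or 39.7, 42.0 and 39.05 cpm against 76.9, 79.1 and 64.5 cpm. The METTL7A1 values were tightly grouped and far below the lowest mock value, and the level fell by 45.2% (log2 fold change -0.87 ± 0.09 SE, edgeR adjusted p = 2.18e-05). Cox7c shares 24.5% of its stretches of 31 bases with other annotated genes, mainly the pseudogene Gm10012, which together had at most 30 counts in a library. Cox4i1, a regulatory subunit and the most abundant of the complex per length (307 ± 38.2 rpkm in mock cells), had 178, 189 and 178 cpm in METTL7A1 and 249, 254 and 201 cpm in mock cells. The groups were apart by a narrow margin at mock replicate 3, with a log2 fold change (± SE) of -0.37 ± 0.09 (edgeR adjusted p = 0.00815). Cox6a1 had 141, 139.9 and 126 cpm against 193, 177 and 140.2 cpm. It was the 1 called member whose groups overlapped (log2 fold change -0.33 ± 0.11 SE, edgeR adjusted p = 0.0306), and the call ended on leaving out METTL7A1 replicate 2 or 3 or mock replicate 1 or 2. Cox5b (-0.29), Cox6c (-0.26) and Cox5a (-0.24) also fell. Each of these lost its call on leaving out mock replicate 1, Cox6c and Cox5a also on leaving out METTL7A1 replicate 2 or mock replicate 2, and Cox5a on leaving out METTL7A1 replicate 1. Ndufa4, first assigned to complex I and now counted with complex IV, had a log2 fold change (± SE) of 0.21 ± 0.08 (edgeR adjusted p = 0.0544), and was called higher without the same pair of libraries, METTL7A1 replicate 1 and mock replicate 3 (0.17, edgeR adjusted p = 0.0253).

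Several subunits of complex IV have isoforms that are used in muscle, lung, testis or low oxygen, and 4T1 cells held the common form in each set. All 8 candidates that failed the filter were such genes (Cox4i2, Cox6a2, Cox6b2, Cox7a1, Cox7b2, Cox8b, Cox8c and Ndufa4l2). None had more than 4 counts in a library, and 4 of them had 0 counts in all libraries, for which 3 counts are taken as the upper limit, between 0.105 and 0.163 cpm across libraries and for counting error only. At this depth no change in them was detectable. Of the common forms beside Cox4i1 and Cox6a1, Cox6b1 had a log2 fold change of -0.20, Cox8a of -0.20, Cox7a2 of -0.13 and Cox7a2l, which joins complexes III and IV into supercomplexes, of 0.03. None of these was called with all libraries (edgeR adjusted p from 0.0693 to 0.852). Without METTL7A1 replicate 1 and mock replicate 3, 3 of them were called lower: Cox8a (-0.27, edgeR adjusted p = 0.00109), Cox7a2 (-0.21, 0.0123) and Cox6b1 (-0.18, 0.0464).

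Complex V, the ATP synthase, had 3 members higher and 2 lower of 15, with a median log2 fold change of -0.03. Atp5b, the catalytic beta subunit (chromosome 10, 128083273 to 128090391), had the highest level per length of all members, 459 ± 53.9 rpkm in mock cells. Its levels were 989, 1153 and 1205 cpm in METTL7A1 replicates 1 to 3 and 919.9, 957 and 763 cpm in mock replicates 1 to 3. METTL7A1 replicate 1 was close to mock replicate 2, and the log2 fold change (± SE) was 0.34 ± 0.11 (edgeR adjusted p = 0.0305), a call lost on leaving out mock replicate 3 or either of METTL7A1 replicates 2 and 3. Atp5d, the delta subunit of the central stalk (chromosome 10, 80141457 to 80145818), had 84.1, 96.9 and 94.8 cpm against 69.4, 69.1 and 58.8 cpm. The groups were clearly apart, with a rise of 39.99%, a log2 fold change (± SE) of 0.49 ± 0.09 (edgeR adjusted p = 0.000991). Atp5j, a subunit of the peripheral stalk, rose by 0.21 (SE 0.07, edgeR adjusted p = 0.0313), but not on leaving out METTL7A1 replicate 2 or 3 or mock replicate 1 or 2. Atp5j2, subunit f of the membrane part (chromosome 5, 145183698 to 145192062), had 40.2, 47.5 and 48.8 cpm in METTL7A1 and 69.3, 74.9 and 61.0 cpm in mock cells. All METTL7A1 libraries lay well below all mock libraries, and the level fell by 33.3% (log2 fold change -0.58 ± 0.10 SE, edgeR adjusted p = 0.000622). Atp5a1, the alpha subunit that pairs with Atp5b, did not follow it (0.04, SE 0.11, edgeR adjusted p = 0.772). The difference between these subunits was not tested.

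Subunit c of the ATP synthase rotor is encoded by Atp5g1, Atp5g2 and Atp5g3, whose mature proteins are identical. Atp5g1 (chromosome 11, 96068852 to 96075670) had 26.1, 27.4 and 30.3 cpm in METTL7A1 and 40.02, 39.7 and 30.3 cpm in mock cells. METTL7A1 replicate 3 and mock replicate 3 were almost equal, and the call as lower (log2 fold change -0.39 ± 0.11 SE, edgeR adjusted p = 0.0152) was lost without METTL7A1 replicate 2, mock replicate 1 or mock replicate 2. Atp5g2 had a log2 fold change of -0.01 and Atp5g3, the most abundant of the set per length at 160.1 ± 16.9 rpkm in mock cells, of 0.12, and neither was called. Atp5g2 shares 40.2% of its stretches of 31 bases with other genes, mainly the pseudogene Gm10175 with at most 4 counts in a library. Atp5g1 shares 14.1%, of which the largest part, 7.2%, is with the pseudogene Gm10039. Gm10039 had at most 414 counts in a library, beside 484 to 962 for Atp5g1, and how such reads were counted is not stated.

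**Figure D2:**
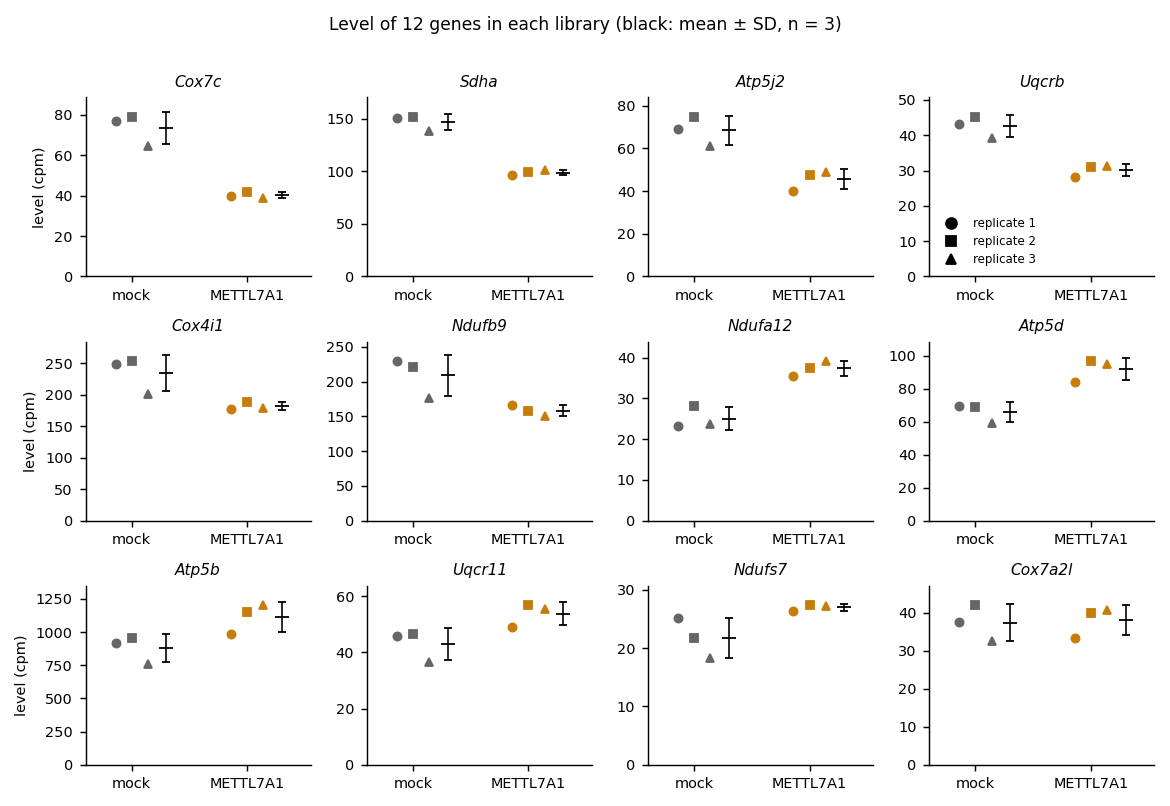
Level in cpm of 12 members in each library, with the mean and SD of each group (n = 3) in black and a vertical axis from 0. Cox7c, Sdha and Atp5j2 show METTL7A1 libraries well below mock libraries, Ndufa12 and Atp5d show them above, and Cox7a2l, not called, shows overlap. Mock replicate 3 (triangle) is the lowest mock library in most panels.

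Levels were also summed over the members of each complex. All members together came to 4983, 5467 and 5629 cpm in METTL7A1 replicates 1 to 3 and 5793, 6048 and 4930 cpm in mock replicates 1 to 3, so that mock replicate 3 was the lowest library of all. Expressed as a share of raw counts without scaling, the same sums were 0.503%, 0.567% and 0.569% against 0.519%, 0.584% and 0.532%. The sum of complex IV was 991, 1039 and 1032 cpm in METTL7A1 and 1258, 1294 and 1044 cpm in mock libraries, a separation that rests on a margin of a few cpm at mock replicate 3. The sum of complex V, of which Atp5b makes up the largest share, was 2203, 2486 and 2593 cpm against 2264, 2402 and 1929 cpm, with overlap. Complexes I and III overlapped as well.

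**Figure D3:**
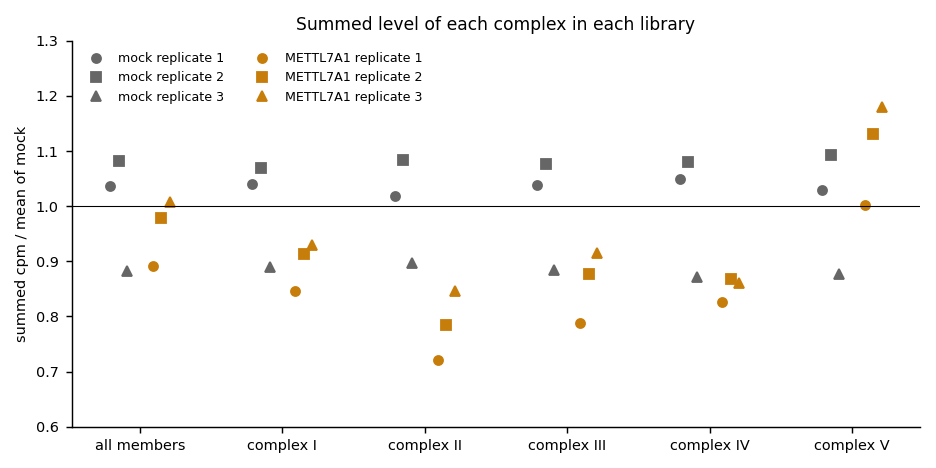
Summed cpm of the members of each complex in each library, divided by the mean of the mock libraries, with circles, squares and triangles for replicates 1 to 3. The METTL7A1 libraries (orange) lie below all mock libraries (grey) for complexes II and IV and overlap them for the others, and mock replicate 3 lies below the other mock libraries throughout.

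The members are spread over 19 chromosomes, and those of some chromosomes moved one way. All 5 members on chromosome 10 rose (Atp5d, Ndufs7, Uqcr11, Ndufa12 and Atp5b), and 5 of the 6 on chromosome 13 fell (Cox7c, Sdha, Uqcrb, Ndufs6 and Uqcrfs1, but not Ndufs4 at -0.18). These chromosomes were picked out after their values were seen. The members on chromosome 10 lie between 80141457 and 128090391, and the 204 other abundant genes of that span had a median log2 fold change of 0.41, with 70.6% of them called higher. Between 30540308 and 114388094 of chromosome 13, the span of its members, 286 other abundant genes had a median of -0.25, with 47.9% called lower. On the other chromosomes 18 of 70 members were called, 2 higher (Ndufv3 and Atp5j) and 16 lower. For reference, 42.1% of all genes tested on any chromosome were called, and the share off chromosomes 10 and 13 is not given here.

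To describe this for all members, each was set beside the median log2 fold change of the 40 abundant genes nearest to it on its chromosome. Across the 81 members the correlation with that median was 0.69 (Pearson) and 0.66 (Spearman), and over the 70 members off chromosomes 10 and 13 it was 0.50 (Pearson) and 0.52 (Spearman). Among 10569 other abundant genes it was 0.39 (Pearson) and 0.47 (Spearman). These are correlations across genes, which share libraries and are not independent replicates, and no p is given. The sign was shared by 62 of 81 members (76.5%), beside 68.0% of the other abundant genes. It was also shared by 25 of the 28 members that were called: all 7 that rose and 18 that fell. The share among other called genes is not given here, so whether the 25 of 28 is particular to members cannot be read.

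**Figure D4:**
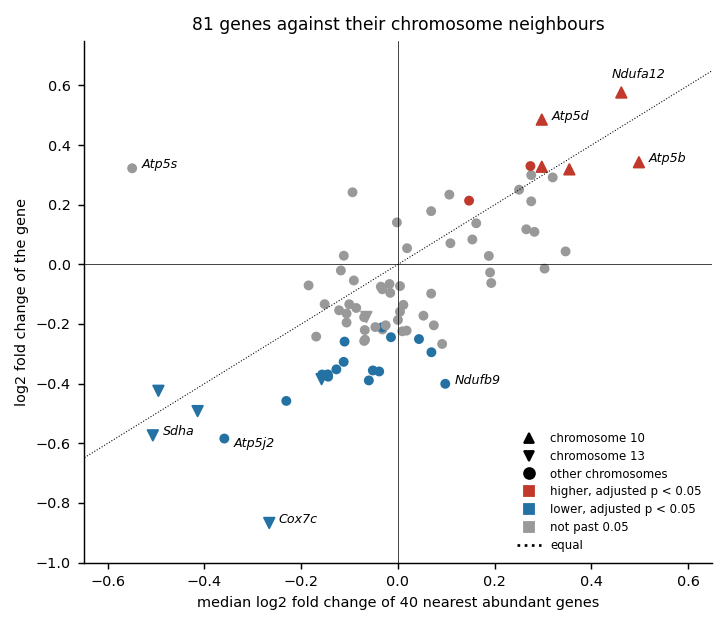
Log2 fold change of each of the 81 members against the median log2 fold change of its 40 nearest abundant genes, with triangles for chromosomes 10 and 13 and a dotted line where both are equal. The members of chromosome 10 sit at the upper right with neighbour medians above 0, Cox7c lies far below the line, and Atp5s far above it.

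When this regional median was taken off as an offset in the same fit, 14 members were called (17.3%, beside 31.5% of all genes), 2 higher and 12 lower. Of the 28 calls, 8 were kept, all of them falls: Cox7c, Ndufb9, Sdhb, Ndufb6, Cox5b, Atp5g1, Ndufs1 and Cox5a. Over all genes tested, 3372 of 5537 calls were kept. Cox7c remained the largest fall, at -0.60 relative to its neighbours (edgeR adjusted p = 0.000352). Ndufb9 stood at -0.50 (edgeR adjusted p = 0.00302), as its neighbours had a median of 0.10. Sdha, with a neighbour median of -0.51, came to -0.07 and was not called. Ndufa12 came to 0.11, Atp5d to 0.19 and Atp5j2 to -0.23, none of them called. The 6 newly called members were Ndufb2, Atp5c1, Atp5g2 and Atp5a1 as lower and Ndufc1 and Atp5s as higher. Atp5s (chromosome 12, 69724962 to 69744658) was the member farthest from its surroundings: it had 4.10, 4.88 and 4.38 cpm in METTL7A1 and 3.23, 3.63 and 3.82 cpm in mock cells, a log2 fold change (± SE) of 0.32 ± 0.16 that was not called, while its neighbours had a median of -0.55. Relative to them it was at 0.87 (edgeR adjusted p = 0.00189). The median of the members was -0.15 with and without the offset, while complex V moved from -0.03 to -0.16 and complex II from -0.31 to -0.13. The cause of the regional shifts was not tested.

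Most members are short genes, with a median exon length of 1001 bases beside 2981 over all genes tested. Among the 40 members shorter than 1000 bases 30% were called and the median log2 fold change was -0.11. The 1324 other genes of that length had 25.6% called and a median of -0.13. These medians differed by class. Between 500 and 1000 bases the 35 members had a median of -0.15 and other genes of -0.06, and below 500 bases the 5 members had -0.05 and other genes -0.20. In the longer classes the medians were -0.13 for 26 members and -0.04 for other genes from 1000 to 2000 bases, -0.21 for 11 members and -0.02 for other genes from 2000 to 4000 bases, and -0.20 for 4 members and -0.00054 for other genes above that. With exon length as an offset 31 members were called, 11 higher and 20 lower, against 7 and 21 without it. Calls over all 13166 genes went up as well, from 5537 without that offset to 5739 with it.

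Promoters of members that moved apart were then set side by side, because nuclear respiratory genes are known for shared sites of NRF1, of GABPA and other ETS factors, and of YY1. Of the 81 members, 70 had a promoter in the RefSeq table of build GRCm38.p6, from 250 bases before to 50 after the start. The letters searched on either strand were GCGCANGCG for NRF1, CCGGAAG for ETS factors and AAGATGGCG for YY1. Matches of different motifs never overlapped, and in 5 promoters NRF1 matches on the 2 strands overlapped each other. NRF1 letters were found in 31.4% of the member promoters, compared with 6.25% of all 32851 listed promoters and 8.83% of 17491 protein-coding genes. ETS letters were in 25.7% (8.86% of all listed, 11.9% of protein-coding genes) and YY1 letters in 10% (1.4% and 1.94%). For members the promoter nearest the gene start was taken, and for protein-coding genes the first listed. By call, NRF1 letters were in 1 of 7 promoters of members that rose (14.3%), in 4 of 16 of those that fell (25%) and in 17 of 47 of those not called (36.2%). ETS letters were in 14.3%, 31.2% and 25.5% of the same promoters, and YY1 letters in 14.3%, 18.8% and 6.38%. A match is a description of the sequence and not evidence of binding.

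The promoters of the largest fall, of a large fall with NRF1 letters, of the largest rise and of a rise with NRF1 and ETS letters are shown 5′ to 3′ on the strand of the gene, with matches in capitals. They lie at chr13:86046746-86047045, minus strand (Cox7c), chr13:74350191-74350490, minus strand (Sdha), chr10:94198785-94199084, plus strand (Ndufa12) and chr10:80406772-80407071, minus strand (Uqcr11).
Cox7c: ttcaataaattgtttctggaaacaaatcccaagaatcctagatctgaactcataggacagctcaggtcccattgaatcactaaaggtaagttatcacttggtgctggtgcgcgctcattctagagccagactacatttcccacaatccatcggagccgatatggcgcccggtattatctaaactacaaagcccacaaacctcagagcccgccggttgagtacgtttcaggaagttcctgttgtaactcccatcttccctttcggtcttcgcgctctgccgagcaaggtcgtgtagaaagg
Sdha: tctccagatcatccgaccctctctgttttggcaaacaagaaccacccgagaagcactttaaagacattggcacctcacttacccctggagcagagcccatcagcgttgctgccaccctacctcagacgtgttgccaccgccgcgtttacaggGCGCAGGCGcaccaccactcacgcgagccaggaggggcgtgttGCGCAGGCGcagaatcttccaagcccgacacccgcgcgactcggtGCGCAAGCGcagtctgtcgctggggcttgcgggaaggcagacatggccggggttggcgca
Ndufa12: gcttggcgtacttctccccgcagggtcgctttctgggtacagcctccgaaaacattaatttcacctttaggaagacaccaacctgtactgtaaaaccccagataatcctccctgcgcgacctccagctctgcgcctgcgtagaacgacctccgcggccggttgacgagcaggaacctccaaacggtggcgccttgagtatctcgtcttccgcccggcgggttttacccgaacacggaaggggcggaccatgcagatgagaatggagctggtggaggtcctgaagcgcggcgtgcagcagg
Uqcr11: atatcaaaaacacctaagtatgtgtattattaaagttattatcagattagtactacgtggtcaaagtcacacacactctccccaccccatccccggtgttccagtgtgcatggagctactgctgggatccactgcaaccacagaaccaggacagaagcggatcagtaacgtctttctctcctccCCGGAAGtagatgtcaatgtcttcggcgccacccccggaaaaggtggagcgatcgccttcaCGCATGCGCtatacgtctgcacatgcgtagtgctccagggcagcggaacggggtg
Sdha holds NRF1 letters at 3 places and Uqcr11 at 1, together with 1 ETS match, while Cox7c and Ndufa12 hold none of the motifs in this window. Of those with NRF1 letters Sdha fell and Uqcr11 rose, and of those without a match Cox7c fell and Ndufa12 rose. These promoters were picked with values and matches known, and lie on chromosomes 13 and 10. Relative to chromosome neighbours Sdha was at -0.07, Uqcr11 at 0.03 and Ndufa12 at 0.11, none called, and Cox7c at -0.60. Whether the letters bear on the direction was not tested.

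The genes that work with the nuclear subunits were read from the same fit. The mitochondrial genome encodes 13 subunits, of which 9 were tested, and 1 was called: mt-Nd6 rose by 0.64 (SE 0.14, edgeR adjusted p = 0.00312). It had 762, 571 and 486 cpm in METTL7A1 and 384, 383 and 399 cpm in mock cells, so that the groups were apart but METTL7A1 replicate 1 was far above the others. It is the subunit encoded on the opposite mitochondrial strand, and the strand setting of the counting is not given in the sources used here. The summed mitochondrial subunits came to 21281, 17215 and 14637 cpm against 18707, 18896 and 17471 cpm. Here METTL7A1 replicate 1, low for the nuclear members, was the highest library. Counts of these genes were uneven: mt-Co2, mt-Co3, mt-Atp6, mt-Atp8, mt-Nd3 and mt-Nd4l had at most 42 counts in a library, while the other 7 had at least 7021, and no change is read from the low ones.

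Assembly factors of complex I, 14 of them tested, had 1 higher and 4 lower. Ndufaf4 fell, with 36.8 ± 2.02 cpm in mock and 17.7 ± 0.226 cpm in METTL7A1 cells (SD, n = 3), a log2 fold change (± SE) of -1.05 ± 0.08 (edgeR adjusted p = 2.55e-06), larger than that of any member, and kept -0.90 with the neighbour offset. Ndufaf6 (-0.56), Ecsit (-0.48) and Acad9 (-0.27) fell as well, Acad9 not without mock replicate 1. Of 37 assembly factors of complexes II to V, the Sdhaf genes among them, 3 were higher and 9 lower. Lrpprc and Slirp, partners that stabilise mitochondrial mRNAs, fell by 0.52 and 0.62, and Higd2a and Higd1a, which act on supercomplexes and complex IV, fell by 0.85 and 0.45 on the log2 scale. Relative to its chromosome neighbours Slirp was at -0.14 and no longer called (edgeR adjusted p = 0.258), and Higd2a was at -0.34, still called. In coenzyme Q synthesis 2 of 12 genes rose and 5 fell, among them Coq6 (-0.76), Pdss2 (-0.53), Coq2 (-0.37) and Coq5 (-0.33). With the neighbour offset Coq6 was at -0.35, and Pdss2 at -0.04 lost its call (edgeR adjusted p = 0.801). Among 9 electron carriers and other entry points, Prodh (-0.63), Dhodh (-0.58) and Cycs (cytochrome c, -0.47) fell. Sqrdl, the sulfide quinone oxidoreductase, rose from 1.66 ± 0.326 to 6.65 ± 1.43 cpm, a log2 fold change (± SE) of 1.99 ± 0.22 (edgeR adjusted p = 4.03e-05), past the study thresholds.

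In the tricarboxylic acid cycle, which feeds the chain, 2 of 13 genes rose and 5 fell, with Dlst (-0.62), Dld (-0.51), Sucla2 (-0.41) and Ogdh (-0.23) having the smallest p. Ogdh lost its call without METTL7A1 replicate 2, mock replicate 1 or mock replicate 2. Relative to chromosome neighbours none of the 13 was called. Of 14 tested regulators of respiratory and mitochondrial DNA genes, Tfam, which packages and transcribes mitochondrial DNA, rose by 0.59 (SE 0.07, edgeR adjusted p = 4.28e-05) and Gabpb1 by 0.41, while Pprc1, a coactivator related to PGC-1, fell by 0.61 and Polg, the mitochondrial DNA polymerase, by 0.34 on the log2 scale. Gabpb1 (0.14) and Polg (-0.23) were not called relative to their neighbours, and Tfam was at 0.29 there. Ppargc1a had at most 1 count in a library. The list with the most falls was that of import and membrane proteins, with 12 of 20 lower, 2 higher and a median of -0.34. Ucp2 (-1.004), Tomm40 (-0.65), Slc25a5, the ADP and ATP carrier (-0.56), and Timm23 (-0.50) fell, and 12 of the 20 were called relative to their neighbours. The list of proteases and fusion or fission factors also holds the transcription factor Atf5. This list went the other way, with 5 of 12 higher and none lower. Among the 5 were Atf5 (0.89), Dnm1l (0.48), Oma1 (0.42) and Afg3l2 (0.37). Afg3l2 was at 0.04 relative to its neighbours and not called, and Oma1 lost its call without METTL7A1 replicate 3. For reference, the share called over all genes was 42.1%, beside 70% of the import list and 41.7% of this one.

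**Figure D5:**
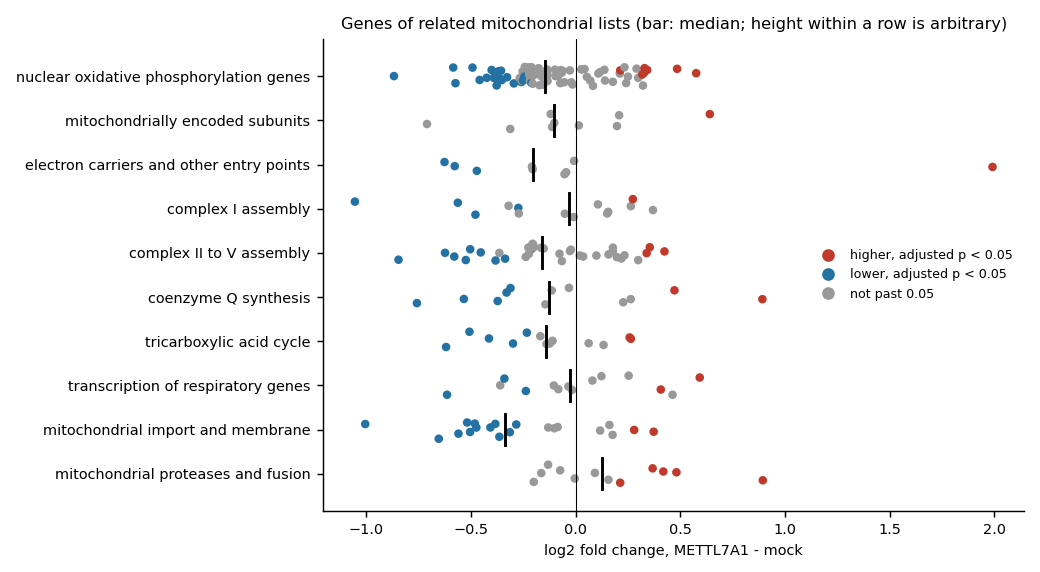
Log2 fold change (METTL7A1 minus mock) of the tested genes of 9 related mitochondrial lists below the 81 members, coloured by call, with the median as a bar and an arbitrary height within each row. The import and membrane list has the lowest median (-0.34), proteases and fusion the highest (0.13), and the nuclear oxidative phosphorylation genes lie at -0.15.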

How the data were processed

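Reads were demultiplexed with bcl2fastq 2.20.0.422, per the submitters' processing notes. After end trimming in BBDuk, the authors mapped read pairs to mm10 (GRCm38) with STAR 2.5.3a, assigned them to Ensembl genes with featureCounts in R 3.5.1 and deposited raw counts per gene. Settings for strand and reads mapping to several places are not given in the sources used here.

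Counts of all 48587 listed genes entered R 4.3.3 and edgeR 4.0.16. Genes with at least 1 cpm in at least 3 libraries were kept (13166), scaled by TMM and tested with glmQLFit and glmQLFTest, METTL7A1 against mock, without covariates. P values were adjusted by Benjamini-Hochberg over all 13166 genes. The SE is the absolute log2 fold change divided by the square root of F. Cpm use TMM-scaled library sizes and rpkm divide them by the exon length of the deposited table. The fold change threshold of the study has no stated base and was read as log2. Abundant genes had an average log2 cpm over 2. The script was tested on simulated data.

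The triplicates are called biological in the labels, but how they were grown is not stated, so p values measure the spread between these libraries. Members, gene lists and tests were chosen with earlier results of these data known. The text names Mettl7a1, and within each complex the 3 called members with the largest absolute log2 fold change, the member with the highest level per length and any past the study thresholds. It also names core subunits of complex I, all of complex II and the isoform sets, and at most 4 called genes with the smallest p in each other list, and some items that this rule or the lists hold are not reported here. Members named beyond this, such as Atp5s, Ndufc1, Ndufs4 and the remaining called members, were chosen after their values were seen. Sequence shared with other genes was counted in stretches of 31 bases over GENCODE M21 transcripts, which held 80 of the 81 members. Exons of Ndufb2 and Ndufb8 overlap other genes on the same strand, both at 0 counts. Sqor, Ndufaf8 and Twnk, put on the lists, were not matched to a symbol of the table.

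Alternatives were RLE and upper quartile scaling, no filter, a minimum of 10 counts in each library, leaving out the 20 genes with the most counts, a replicate block, omission of each library, DESeq2 1.42.0, voom of limma 3.58.1, glmTreat, a 1.5-fold linear threshold, and offsets for exon length or for the 40 nearest abundant genes.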

Additional observations from a re-analysis of the deposited data

How the results depend on the processing

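The count of 28 called members lay between 23 and 41 under every scaling, filter and tool, with exon length as an offset and with both low libraries left out. It was 14 with the neighbour offset, where by construction a shift shared with neighbouring genes is removed, and it went from 16 to 35 over the fits that omitted 1 library, lowest without mock replicate 1 (16) and METTL7A1 replicate 2 (17). DESeq2 gave 27 and voom 29. The shares of all genes called under the other scalings, filters and tools are not given here. The number past the study thresholds was 0 in every setting except a threshold of 1.5-fold on the linear scale, where it was 1 (Cox7c), beside 1749 of all genes. The median log2 fold change of the members lay between -0.21 and -0.07 over all settings, and that of Mettl7a1 between 7.91 and 8.32.

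With the neighbour offset the log2 fold changes of Atp5b (-0.16), Ndufs7 (-0.036) and Ndufs6 (0.071) turned their sign and were not called. No other alternative turned the sign of a named member that was called. Replicate numbers were not used to pair the libraries in the main fit. The deviations of same-numbered libraries from their group means had correlations of -0.15, 0.20 and -0.37. With 3 libraries a group these values cannot tell whether same-numbered libraries were prepared together. With the replicate block 23 members were called, 4 higher and 19 lower, all of them among the 28. The share of all genes called with the block, or with a single library omitted, is not given here. Cox5a, Sdhaf2, Atp5j, Ndufv3 and Atp5b lost their call there (edgeR adjusted p from 0.0534 to 0.0819). Under the block the log2 fold change of Mettl7a1 was 8.17, the median of the members -0.14, and 0 were past the study thresholds.

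The smallest changes that were called were those of Sdhaf2 (-0.21) and Atp5j (0.21), and smaller ones were not called with 3 libraries a group. No change was read for genes with 4 counts or fewer.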
